A study of Mus musculus with 6 samples.

Results

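The expression of 10 mouse genes that encode actin-bundling proteins or proteins of filopodia was compared with and without a fascin inhibitor in IL-1β-treated cells: Fscn1, Pls3, Lcp1, Actn1, Actn4, Myo10, Enah, Vasp, Espn and Baiap2. They were chosen by gene symbol, with earlier results of these data known. All 10 are among the 16880 genes listed in the deposited expression table. The libraries came from ATDC5, a murine chondrogenic cell line, in 2 groups of 3. The IL-1β group (IL) received the inflammatory cytokine IL-1β alone at 10 ng/mL, and the inhibitor group (ILN) received the same IL-1β together with 10 μM NP-G2-044, a small-molecule inhibitor of fascin. The methods give 24 h for both groups. Titles of the inhibitor-treated samples name NP-G2-044, whereas their treatment field names NP-G2-047, and the methods speak of chondrocytes where the labels speak of ATDC5. A DMSO group that the methods name was not analysed here. Both groups carry IL-1β, so no value below compares IL-1β with its absence.

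Filopodia are finger-like protrusions whose core is a tight parallel bundle of actin filaments. Fascin, the product of Fscn1, cross-links the filaments of that bundle, while plastins and α-actinins cross-link filaments at other spacings, in the cell cortex, adhesions and stress fibres. IRSp53, the product of Baiap2, couples CDC42 to bending of the membrane, Ena/VASP proteins lengthen filaments at the tip, and myosin X (Myo10) walks along the bundle to the tip. In chondrocytes in monolayer, a shift from a round to a spread, fibroblast-like shape goes along with actin stress fibres, and fascin is the protein that NP-G2-044 is designed to block. The level of Fscn1 mRNA does not measure how far the protein was blocked.

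With NP-G2-044, 7 of the 9 genes that had enough reads to be tested fell, 1 rose and 1 did not pass the test. Fscn1, Baiap2 and Enah fell to less than 50% of their level with IL-1β alone, Actn1, Myo10, Pls3 and Actn4 fell by less than that, and Vasp rose slightly. Lcp1 and Espn were both under 1 TPM (the transcript level scaled to gene length and to the library) in each of the 6 libraries. A gene is said to have risen or fallen where the quasi-likelihood test of edgeR on the read counts gave a Benjamini-Hochberg adjusted p below 0.05, and to pass both cutoffs where its log2 fold change was also over 1 in size. Fold changes are the ILN level over the IL level, and SE is their standard error. The comparison as a whole was broad: 80% of the 11983 genes tested passed on the adjusted p, 40.2% of those tested with a higher and 39.8% with a lower level under the inhibitor. Against that background of 39.8%, 7 of 9 genes (77.8%) fell here. Because the genes were chosen with earlier results of these data known, their shares describe this list and do not test for an excess. For both cutoffs, 3 of 9 genes (33.3%) were lower and none higher, where 10.1% of all tested genes were lower and 6.48% higher (16.6% together). The libraries of the groups did not overlap for 8 of the 9 genes, 7 lower and 1 higher, and for 80.8% of all tested genes, 40.1% lower and 40.7% higher. The median log2 fold change was −0.83 over the 9 genes and 0.0018 over all tested genes. In bulk RNA, fewer cells that express a gene and less RNA of that gene in each cell cannot be told apart.

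Depth was similar in all libraries, with 16615831 to 16878162 reads in IL and 17529836 to 17735850 in ILN. The spread between libraries of a group was small (common biological coefficient of variation 2.33%), so small differences pass the test, and no library stood nearer to the other group. The labels do not say whether the 3 libraries of a group came from separate cultures, though the methods call them biological replicates. If they did not, the p-values measure technical spread. Of 12 chondrocyte markers, 7 are listed and only Sox9 and Col11a2 averaged at least 1 TPM. Col2a1, which encodes the main cartilage collagen, was near 0 and fell, from 0.20 to 0.24 TPM with IL-1β to 0.02 to 0.06 with the inhibitor. Col11a2 fell from 5.01 to 3.43 TPM on average, Sox9, a transcription factor of chondrocytes, rose from 6.44 to 11.4 TPM, and the summed level of the list was 11.47 to 12.21 TPM in IL and 14.83 to 15.02 in ILN. The 10 fibroblast and mesenchyme markers summed to 8016.8 to 8254.1 TPM with IL-1β and 2514.1 to 2627.6 with NP-G2-044. Most of that difference was S100a4, at 4313 and 730.4 TPM on average, with Col1a2 and Vim next in level, whereas Pdgfra rose from 2.36 to 8.69 TPM, Col1a1 and Col3a1 were under 10 TPM and Thy1 was listed at 0. Of 6 osteoblast markers, 4 are listed, and they summed to 108.04 to 123.74 TPM in IL and 18.49 to 20.78 in ILN. Most of that difference was Spp1, at 90.8 and 6.76 TPM on average, while Runx2 was at 20.8 and 12.4. Sp7 and Alpl were low, at 1.76 and 1.85 TPM on average in IL and 0.36 and 0.08 in ILN. Summed markers of endothelium and skeletal muscle were under 0.5 TPM in every library. In these libraries the filopodial genes were therefore measured in cells with little mRNA of the cartilage matrix markers that are listed. The markers Acan, Col9a1, Col9a2, Hapln1 and Snorc are not listed, so their levels are not known here. Whether cell state differed between the groups, and what part that had in the results, was not tested.

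**Figure D1:**
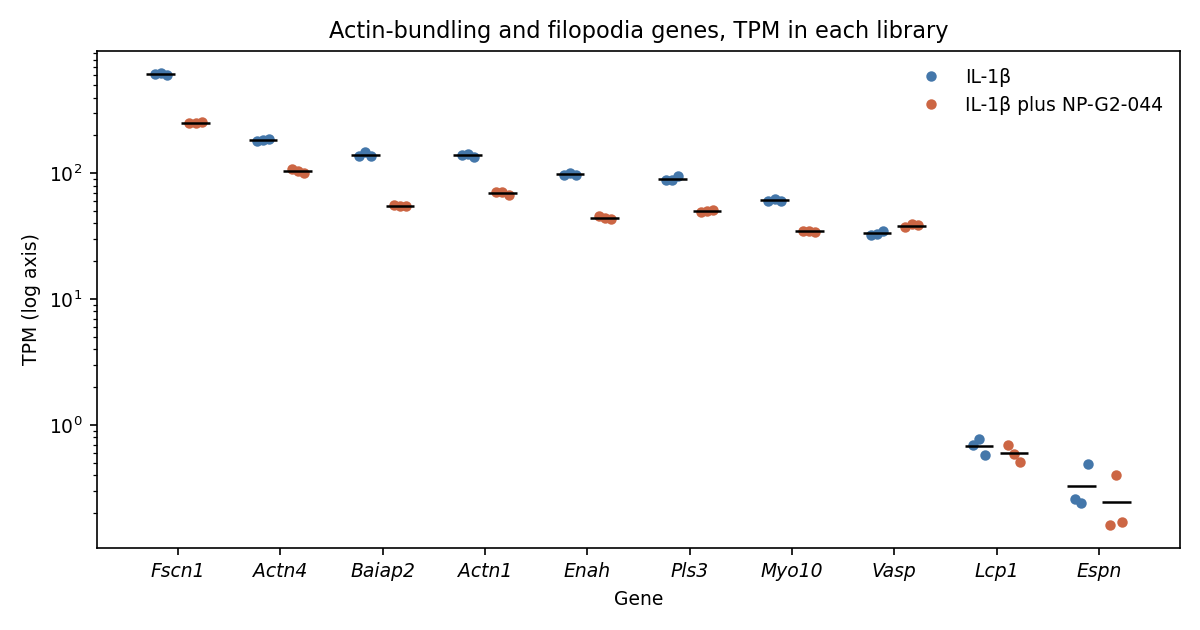
Level of the 10 genes in TPM (log axis) in each of the 6 libraries, with blue points for IL and orange points for ILN, and a black line at each group mean. Fscn1 lies highest in both groups, the groups stand apart for 8 genes, and Lcp1 and Espn lie below 1 TPM with overlapping groups.

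The upstream sequences of 3 of the genes are shown because they stand for the patterns found: Fscn1, the most abundant and among those that fell most, Pls3, a bundler that fell less, and Vasp, the one gene that rose. Each stretch is 230 bases of genome build GRCm38.p6 (the build also called mm10) from RefSeq's promoter table, written 5′ to 3′ on the strand of the gene. It ends 20 bases before the RefSeq start of the first window. Capitals mark matches to the cAMP response element TGACGTCA or to the TEAD motif GGAATG, on either strand. The stretches are chr5:142960105-142960334 (plus strand) for Fscn1, chrX:75875203-75875432 (minus strand) for Pls3 and chr7:19271875-19272104 (minus strand) for Vasp.
Fscn1: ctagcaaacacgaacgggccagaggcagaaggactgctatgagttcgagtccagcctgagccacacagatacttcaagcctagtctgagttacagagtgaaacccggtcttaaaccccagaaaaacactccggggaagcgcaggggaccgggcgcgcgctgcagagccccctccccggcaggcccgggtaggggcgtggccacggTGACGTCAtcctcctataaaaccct
Pls3: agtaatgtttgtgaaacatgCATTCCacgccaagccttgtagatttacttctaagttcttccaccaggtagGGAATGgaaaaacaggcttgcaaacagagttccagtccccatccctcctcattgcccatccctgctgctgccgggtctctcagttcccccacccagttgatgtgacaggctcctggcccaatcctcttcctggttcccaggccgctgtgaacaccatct
Vasp: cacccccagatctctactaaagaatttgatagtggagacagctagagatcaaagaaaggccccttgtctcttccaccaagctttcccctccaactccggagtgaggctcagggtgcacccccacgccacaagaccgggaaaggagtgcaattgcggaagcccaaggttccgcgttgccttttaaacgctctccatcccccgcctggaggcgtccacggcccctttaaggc

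All 10 genes have a RefSeq promoter window, 16 windows of 300 bases in all, from 250 bases before to 50 after an annotated start. The cAMP response element, the same on both strands, was found in the window of Fscn1, beginning 45 bases before the start, and in that of no other gene of the 10. It occurs in 1.79% of the 32851 promoter windows of the table. The TEAD motif was found in 6 of the 16 windows, and in 14.7% of all windows. Those 6 belong to Pls3, Lcp1, Actn4 and Myo10, and 2 of those of Pls3 overlap and hold the same sites. In Lcp1 and Myo10 the motif was only in the window of a later start. The CArG box, the site of serum response factor, was in none of the 16 windows and in 1.63% of all windows. No motifs overlapped in the stretches shown, and that of Vasp held none. Among tested genes, 32.2% of the 351 with a cAMP response element in a window fell with the inhibitor, and so did 39.8% of the 9283 without one. For the TEAD motif the shares were 43.5% of 1364 genes and 38.9% of 8270. These matches describe letters only and say nothing of which factors bound there.

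Fscn1 (Entrez gene 14086, chr5:142960343-142973185, plus strand, in the GENCODE annotation of GRCm38) was the most abundant of the 10 genes in both groups. Its level was 619.9, 623.3 and 605.5 TPM in the IL libraries and 249.95, 252.4 and 254.9 TPM in the ILN libraries. In reads, these were 15943, 15558 and 15433 against 6716, 6933 and 7011. The lowest IL library thus lay at more than 2 times the highest ILN library. The log2 fold change was −1.26 (SE 0.0275, edgeR adjusted p = 6.5e-41), which left 41.9% of the IL-1β level. Among all genes listed, Fscn1 ranked 203 by mean TPM with IL-1β and 508 with NP-G2-044. Of the tested genes, 7.51% had a lower log2 fold change than Fscn1.

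The other genes of the fascin family were near 0. Fscn2, a fascin of photoreceptors and hair cells, had 16 reads in IL and 18 in ILN, summed over libraries. Fscn3, the testis fascin, had 2 reads against 1. Fscn1 therefore supplied nearly all fascin mRNA in these libraries, under either treatment.

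Baiap2 (Entrez gene 108100, chr11:119942763-120006782, plus strand) encodes IRSp53, the I-BAR protein that links CDC42 to the membrane and to Ena/VASP and EPS8 at the start of a filopodium. It was at 136.8, 148.0 and 137.3 TPM with IL-1β and at 55.8, 55.5 and 55.2 TPM with the inhibitor. All ILN libraries lay below all IL libraries. With a log2 fold change of −1.27 (SE 0.0322, edgeR adjusted p = 5.31e-38), its value was within 1 standard error of that of Fscn1.

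Enah and Vasp encode the Ena/VASP proteins Mena and VASP, which hold growing filament ends and add profilin-bound actin. They went in opposite directions. Enah (Entrez gene 13800, chr1:181896384-182019990, minus strand) was at 96.5, 101.2 and 97.1 TPM with IL-1β and at 46.2, 43.8 and 43.4 TPM with the inhibitor, a log2 fold change of −1.13 (SE 0.0302, edgeR adjusted p = 6.01e-37). Vasp (Entrez gene 22323, chr7:19256929-19271817, minus strand) was at 32.6, 33.2 and 34.7 TPM with IL-1β and at 37.3, 39.4 and 38.9 TPM with the inhibitor. All 3 ILN libraries lay above all 3 IL libraries, by a log2 fold change of 0.23 (SE 0.0474, edgeR adjusted p = 1.65e-05). This rise was small, to 118% of the level with IL-1β, and 67.3% of tested genes had a lower log2 fold change.

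The third member of the family, Evl, did not pass the test. It was at 46.3, 50.02 and 45.9 TPM with IL-1β and at 46.0, 44.9 and 45.1 TPM with NP-G2-044 (log2 fold change −0.0092, standard error 0.0455, adjusted p = 0.859 in edgeR's test). Enah was thus the most abundant Ena/VASP gene with IL-1β alone, whereas with the inhibitor Enah and Evl lay close together, at 43.4 to 46.2 and 44.9 to 46.0 TPM. The log2 ratio of Enah to Vasp, taken from TPM within each library, was 1.55 ± 0.0628 (SD, n = 3) with IL-1β and 0.21 ± 0.0879 (SD, n = 3) with the inhibitor, that is 2.94 and 1.15 Enah transcripts per Vasp transcript. The difference of −1.35 has an exact two-sided permutation p of 0.1, the smallest that 3 against 3 libraries can give.

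**Figure D2:**
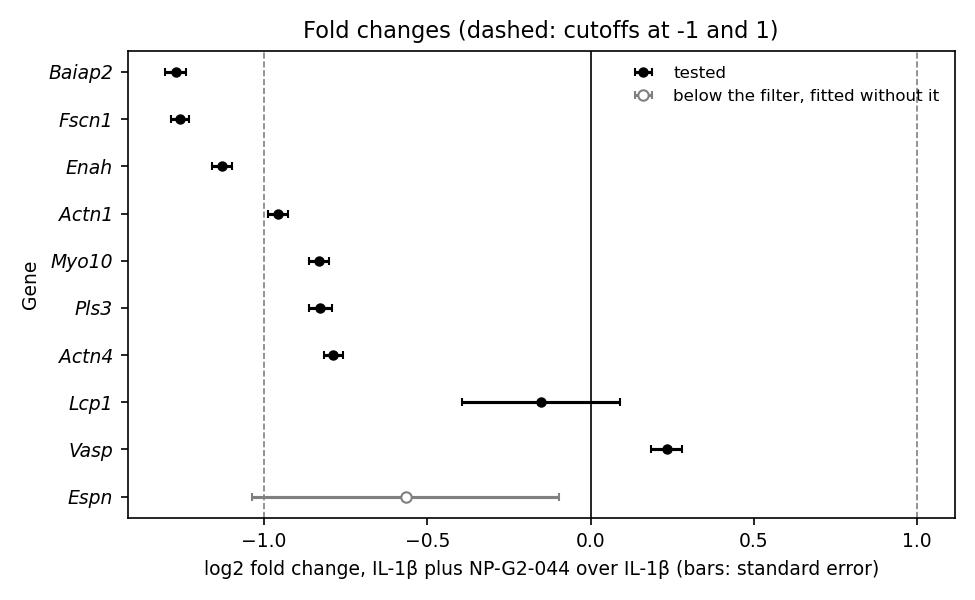
Log2 fold change of each gene, ILN over IL, with its standard error, and dashed lines at the cutoffs of −1 and 1. Baiap2, Fscn1 and Enah lie beyond −1, Vasp lies at 0.23, and Espn (open point) was below the filter on low counts.

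The α-actinins join filaments as antiparallel dimers, at a wider spacing than fascin, in stress fibres and adhesions. Both non-muscle genes fell. Actn1 (Entrez gene 109711, chr12:80167547-80260371, minus strand) was at 139.4, 143.4 and 135.7 TPM with IL-1β and at 71.7, 71.4 and 67.1 TPM with NP-G2-044. Its log2 fold change of −0.96 (SE 0.0307, edgeR adjusted p = 2.94e-33) was just short of the cutoff of 1, and 51.5% of the level remained. Actn4 (Entrez gene 60595, chr7:28893248-28962340, minus strand) was at 182.2, 184.6 and 185.8 TPM with IL-1β and at 108.0, 105.2 and 99.8 TPM with the inhibitor, a log2 fold change of −0.79 (SE 0.0288, edgeR adjusted p = 1.03e-30). Neither gene's groups overlapped.

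Actn4 was the more abundant of the pair in every library. The log2 ratio of Actn1 to Actn4 was −0.40 ± 0.0463 (SD, n = 3) with IL-1β and −0.57 ± 0.0163 (SD, n = 3) with NP-G2-044, a difference of −0.17 (exact two-sided permutation p = 0.1, the smallest possible). The log2 ratio of Fscn1 to Actn1 was 2.14 ± 0.0206 with IL-1β and 1.85 ± 0.0659 with the inhibitor (SD, n = 3 each), so that the parallel bundler fell more than the stress fibre crosslinker in every pairing of libraries (difference −0.29, exact two-sided permutation p = 0.1). Of the muscle α-actinin genes, Actn3 had 28 reads in IL and 33 in ILN and did not pass the test (log2 fold change 0.16, standard error 0.373, adjusted p = 0.694 in edgeR's test). Actn2 was not analysed here. Exons of Actn4 share 316 bases with exons of Capn12 on the opposite strand, 5.16% of its exonic bases, and those of Actn1 share 363 and 88 bases with 2 antisense RNAs. The sources used here do not say whether counting used strand. Counts of Actn4 and Enah are not all whole, as where a read is divided between features, and values of genes that share reads with a close paralog are uncertain to that extent.

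Plastins (fimbrins) pack filaments into bundles without the need for dimers, and their genes differ by tissue. Pls3, the plastin of solid tissues, fell. It (Entrez gene 102866, chrX:75785654-75875182, minus strand) was at 89.3, 88.1 and 95.1 TPM with IL-1β and at 49.1, 49.9 and 51.2 TPM with the inhibitor, with a log2 fold change of −0.83 (SE 0.0349, edgeR adjusted p = 6.26e-28). Lcp1, the leukocyte plastin (Entrez gene 18826, chr14:75131101-75230842, plus strand), was counted 26, 26 and 21 times in IL and 26, 22 and 21 times in ILN. These ranges overlap fully, and the gene did not pass the test (log2 fold change −0.15, standard error 0.241, adjusted p = 0.566 in edgeR's test). Pooled over libraries and scaled to group totals, its reads in IL were 1.11 times those in ILN, with an exact (Clopper-Pearson) 95% interval of 0.79 to 1.57 that reflects counting error alone. The pooled reads of Lcp1 therefore do not exclude a ratio within that interval, which leaves out the spread between libraries.

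The intestinal plastin gene Pls1 was as low as Lcp1, with 21, 27 and 24 reads against 6, 17 and 16, and it fell (log2 fold change −0.95, standard error 0.293, adjusted p = 0.00297 in edgeR's test). Pls3 thus made up nearly all plastin mRNA. The log2 ratio of Pls3 to Lcp1 was 7.07 ± 0.264 with IL-1β and 6.40 ± 0.249 with the inhibitor (SD, n = 3 each), a difference of −0.67 (exact two-sided permutation p = 0.1), and most of its spread came from the few reads of Lcp1. Among 12 markers of blood cells, 9 are listed and Ptprc, the common leukocyte marker, was at 0 in all 6 libraries. Their summed level was 13.1 to 15.9 TPM with IL-1β and 125.8 to 137.1 with NP-G2-044. Nearly all of it was Cd68, a lysosomal protein of macrophages that other cells also make, at 12.4 and 129.9 TPM on average. Exons of Lcp1 share 311 and 219 bases with 2 non-coding RNAs on the opposite strand, so that some of its few reads could be theirs.

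Myo10 (Entrez gene 17909, chr15:25622525-25813673, plus strand) encodes the motor that carries Ena/VASP and integrins to filopodial tips. It was at 60.4, 62.2 and 60.8 TPM with IL-1β and at 34.8, 34.8 and 34.1 TPM with NP-G2-044, a log2 fold change of −0.83 (SE 0.0307, edgeR adjusted p = 1.42e-30). The groups did not overlap, and the libraries of a group lay within 2 TPM of each other. The gene also makes a shorter form without the motor, from a later start, and values per gene cannot separate the forms.

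Espn encodes espin, the bundler of stereocilia and microvilli in sensory and epithelial cells (Entrez gene 56226, chr4:152120331-152152371, minus strand). It was counted 9, 7 and 11 times in IL and 5, 10 and 4 times in ILN, and did not reach the filter on low counts. The groups overlapped. Fitted without the filter, it had a log2 fold change of −0.57 (SE 0.47, edgeR adjusted p = 0.304), and the ratio of pooled reads, again IL over ILN, was 1.5 with an exact 95% interval from 0.80 to 2.85. Of 6 epithelial markers, none averaged 1 TPM.

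Ordered by mean TPM, the genes ran Fscn1, Actn4, Baiap2, Actn1, Enah, Pls3, Myo10, Vasp, Lcp1 and Espn with IL-1β. Only Baiap2, at 136.8 to 148.0 TPM, and Actn1, at 135.7 to 143.4, overlapped with their neighbour in that order. With NP-G2-044 the order was Fscn1, Actn4, Actn1, Baiap2, Pls3, Enah, Vasp, Myo10, Lcp1 and Espn, and no neighbours overlapped. Enah had thus passed below Pls3, and Myo10 below Vasp. Baiap2 lay below Actn1 in all ILN libraries, whereas their order with IL-1β was not settled because they overlapped.

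The 10 genes together held 1365.3 ± 17.3 TPM (SD, n = 3) with IL-1β and 650.8 ± 4.75 TPM (SD, n = 3) with the inhibitor. Of that sum, Fscn1 made up 45.1 ± 0.462% with IL-1β and 38.8 ± 0.644% with the inhibitor (SD, n = 3 each), a difference of −6.34 percentage points (exact two-sided permutation p = 0.1, the smallest possible). The share was lower in all 3 ILN libraries, at 38.2% to 39.5%, than in the IL libraries, at 44.8% to 45.6%.

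**Figure D3:**
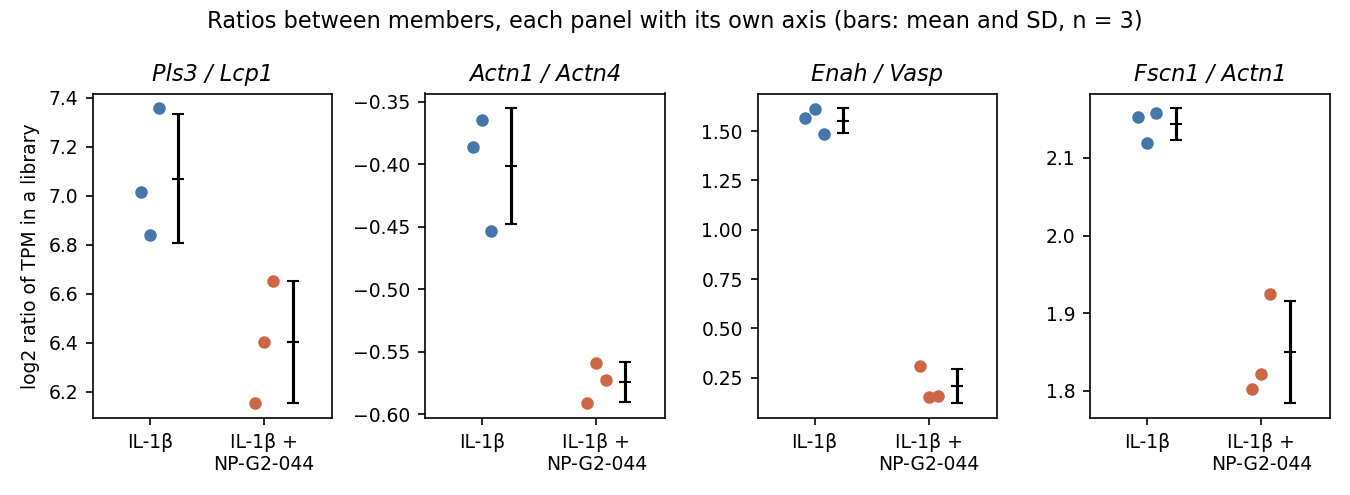
Log2 ratio of TPM between 2 genes in each library, in 4 panels with separate axes, with points for libraries and bars for the mean and SD of 3 libraries. Each ratio was lower in all libraries with NP-G2-044 than in all with IL-1β, and Enah over Vasp moved furthest, from 1.55 to 0.21.

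A wider list of filopodia and actin bundle genes, also chosen with earlier results of these data known, was set beside these. It held 71 symbols, of which 64 are listed in the table and 51 could be tested. Of the 51, 32 fell (62.7%), 17 rose (33.3%) and 2 did not pass, against 39.8% and 40.2% of all tested genes. The median log2 fold change was −0.26. Past both cutoffs, 11 (21.6%) were lower and 7 higher, where 10.1% of all tested genes were lower and 6.48% higher. The 10 of them that averaged at least 10 TPM and changed most are named below, and the largest adjusted p among those 10 was 3.31e-16 in edgeR. The groups of this list did not move as one, and they are given by role.

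Crosslinkers and proteins that sit on bundles were mostly lower. Of 17 tested genes, 15 fell (88.2%, against 39.8% of all tested genes) and 2 rose (11.8%, against 40.2%). Their median was −0.77. Palld encodes palladin, which binds α-actinin and bundles actin in stress fibres, and it showed the largest change among the more abundant genes of the list, from 73.6 ± 0.828 to 13.5 ± 0.895 TPM (SD, n = 3 each), which is −2.47 as log2 fold change. Lima1 (EPLIN, which bundles filaments and slows their loss) was at −1.16, Cnn2 (calponin 2) at −1.09 and Anln (anillin, an actin bundler of the cytokinetic ring) at −1.43. The exceptions were Flnc, a filamin, and Dpysl3, a collapsin response mediator that bundles actin in neurons. Dpysl3 rose from 15.6 ± 0.352 to 62.9 ± 2.41 TPM (SD, n = 3 each), which is 2.04 as log2 fold change.

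Formins, GTPases and CDC42 effectors went both ways, with 10 of 14 lower (71.4%), 4 higher (28.6%) and a median of −0.60. Of all tested genes, 39.8% were lower and 40.2% higher. Cdc42 itself, the GTPase that starts filopodia, fell only from 201.9 to 179.7 TPM on average (log2 fold change −0.14). Its effectors of the Borg family fell further, Cdc42ep1 by a log2 fold change of −1.31 and Cdc42ep3 by −1.05. The remaining 2 tested Borg genes, Cdc42ep2 at −2.60 and Cdc42ep4 at −1.35, averaged under 10 TPM and were singled out after their values were seen. Neighbours of the Ena/VASP proteins were near the shares of all tested genes, with 3 of 7 higher, 3 lower (42.9% each) and Evl not passing. Zyx encodes zyxin, which brings Ena/VASP proteins to stress fibres and adhesions, and it rose from 89.2 ± 1.14 to 236.3 ± 6.91 TPM (SD, n = 3 each), which is 1.46 as log2 fold change.

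Other genes that bend membranes outward went both ways. Of 6 tested I-BAR and inverse F-BAR genes, 4 rose (66.7%, against 40.2% of all tested genes) and 2 fell (33.3%, against 39.8%). Their median was 0.68. Mtss2, an I-BAR gene of the missing-in-metastasis kind, rose from 11 ± 0.363 to 33.1 ± 0.604 TPM (SD, n = 3 each), which is 1.59 as log2 fold change. The nearest relative of Baiap2 that could be tested, Baiap2l1, was at 8.98, 8.87 and 9.34 TPM with IL-1β and at 10.3, 9.87 and 10.4 TPM with the inhibitor, and rose by 0.20 on the log2 scale (adjusted p = 0.0114 in edgeR's test). Baiap2l2 had 0 reads in all IL libraries, which allows up to 3 reads over the group, and 3, 3 and 2 reads with the inhibitor. It was below the filter.

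Genes of stereocilium and microvillus bundles were mostly too low to test, with 5 of 13 listed genes above the filter. Of these 5, 4 were higher (80%, against 40.2% of all tested genes) and 1 was lower (20%, against 39.8%). Their median was 0.94. Ezr (ezrin, which ties actin to the membrane) was the most abundant of the 5 with IL-1β alone, at 67.5 TPM on average. With the inhibitor it averaged 72.4 TPM, below Eps8. Fhod1, a formin, was the one that fell, from 25.3 to 13.8 TPM. Ezr and Fhod1 were named after their values were seen. Eps8, which caps filaments and binds IRSp53 at the filopodial base and tip, rose from 32.5 ± 1.06 to 128.1 ± 5.0 TPM (SD, n = 3 each), which is 1.99 as log2 fold change. Eps8 and Baiap2, whose products form a complex, thus went in opposite directions, at 31.3 to 33.2 and 136.8 to 148.0 TPM with IL-1β and at 124.4 to 133.8 and 55.2 to 55.8 TPM with the inhibitor.

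**Figure D4:**
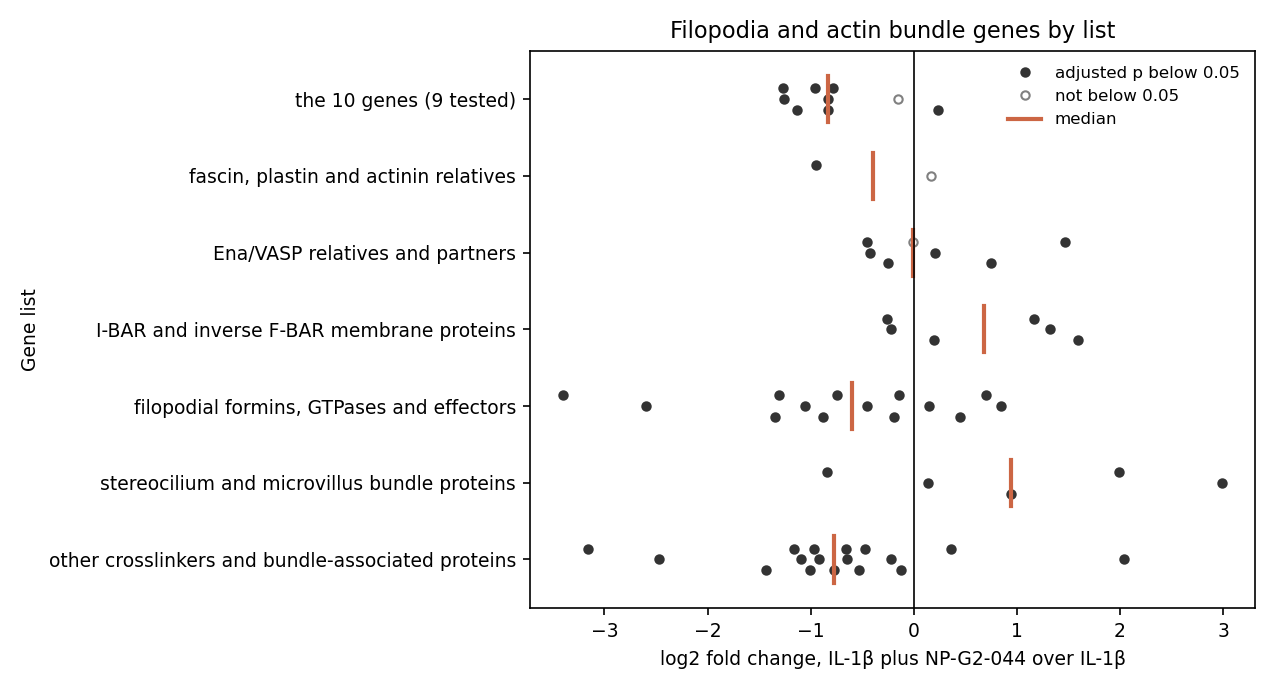
Log2 fold change of each tested gene, by list, with filled points for an adjusted p below 0.05, open points for the rest and an orange line at the median of the list. The medians of the crosslinker list (−0.77) and the formin and GTPase list (−0.60) lie below 0, and those of the I-BAR list (0.68) and the stereocilium and microvillus list (0.94) lie above it.

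The 5 genes with a mean of at least 10 TPM whose pattern over the 6 libraries was most like that of Fscn1 were Fut10, Cdc42ep1, Anxa1, Hmgb1 and Slc7a2. Likeness was the root mean square difference between log2(TPM + 1) values, each gene centred on its own mean, and it was 0.0163 for Fut10 and 0.0292 for Slc7a2 among 8334 genes searched. Cdc42ep1 is the one of the 5 that the wider list holds. Anxa1 and Hmgb1 were in the same range of abundance as Fscn1, at 487.9 and 536.1 TPM with IL-1β and 196.8 and 222.9 TPM with the inhibitor. Of the other 9 genes, Baiap2 ranked 17 by this measure, Enah 119 and Actn1 285. Pls3 ranked 496, Actn4 548, Myo10 551 and Vasp 5412, while Lcp1 and Espn averaged under 10 TPM and were not ranked. With 2 groups of 3 libraries, likeness rests almost wholly on the size of the group difference.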

How the data were processed

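Total RNA of ATDC5 cells was made into TruSeq libraries per the labels, and the methods state that BGI sequenced and quantified them. The submitters' processing notes name cutadapt, HISAT2 2.0, StringTie and mm10, without their order or role. Annotation and counting tool were not stated there. The authors deposited 1 table with, per gene and library, estimated counts that are not normalized (10.2% to 11.1% more than 0.005 from a whole number), TPM and FPKM. The authors' group means were not used.

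Counts were rounded, filtered with filterByExpr (minimum count 10), normalized with TMM (factors 0.997 to 1.002) and tested in edgeR 4.0.16 (glmQLFit, glmQLFTest, R 4.3.3), 3 libraries against 3, without covariates, with Benjamini-Hochberg adjustment over all 11983 genes tested. Standard errors were taken from the log2 fold change and its F statistic. TPM were used for levels and ratios, with exact permutation tests, and FPKM for an alternative. Of these steps, only the edgeR fit was tested on simulated counts, in which far fewer genes changed than in these data. Coordinates are from GENCODE M21. Alternatives were DESeq2 1.42.0, its size factors, other filters, limma 3.58.1 on log2(TPM + 1) and log2(TPM + 0.1), a replicate block and leaving out each library.

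The members and lists were chosen with earlier results of these data known. Named were all 10 members, the relatives of their families, up to 10 other genes of the wider list past both cutoffs with a mean of at least 10 TPM, by size of change, and the 5 genes most like Fscn1. Marker lists were described by their levels.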

Additional observations from a re-analysis of the deposited data

How the results depend on the processing

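The 9 tested members kept their direction and their side of the threshold under each alternative that tested them, with Lcp1 dropping out under a filter of at least 10 CPM in 3 libraries. The count of 7 lower and 1 higher, and of 3 lower past both cutoffs, was the same under all of them. With each library left out, the log2 fold change ran from −1.27 to −1.24 for Fscn1, from −0.98 to −0.93 for Actn1, which never passed −1, and from 0.22 to 0.26 for Vasp. Espn, fitted without the filter (added after seeing the data), ran from −1.04 to −0.32 and was never called, and its 46 reads in all set that limit. On CPM in place of TPM, which are not scaled to length, the difference in the share of Fscn1 was −5.16 percentage points. Genes past both cutoffs numbered 1987 in all, 1164 under the filter of 10 CPM, which left 9447 genes to test, and 1316 with limma on log2(TPM + 1). Libraries with the same replicate number did not deviate together (correlations −0.10 to 0.015), and a replicate block gave Fscn1 −1.26 and 1984 genes past both cutoffs. It changed no call among the members.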
